A study of Mus musculus with 2 samples.

Results

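The nuclei described here are dividing nuclei of the newborn mouse cerebellum without a UMI of the granule lineage genes Pax6 and Neurod1. They were chosen by measured values, so what the choice used is a description and not a finding. A nucleus was a member when at least 1000 genes were detected, at most 5% of its unique molecular identifiers (UMIs, counted transcript molecules) were mitochondrial, the mitotic genes Mki67, Top2a and Kif11 summed to at least 3 UMIs, Pax6 and Neurod1 of the granule lineage summed to 0, and either the glial genes Slc1a3 and Ptprz1 summed to at least 4 UMIs (the glial arm) or Skor1, Lhx5, Pax3 and Kirrel2 of GABAergic precursors summed to at least 2 (the GABAergic arm). In all, 98 nuclei met these criteria, of 10033 that passed the filters on genes and mitochondrial UMIs. Of these, 40 came from the control library and 58 from the conditional knockout (cKO) library.

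Single-nucleus RNA-seq was done at postnatal day 1 on 2 libraries, 1 per group, each from 12 pooled cerebella. The control pups were littermates without Cre, with genotype Tox3f/f, although the library name also allows Tox3f/+. The knockout pups were Nestin-cre;Tox3f/f, so both groups carried a Tox3 allele flanked by loxP sites and differed in the Cre transgene. Nestin-cre acts in neural precursors and what descends from them, not in blood-derived or vascular cells. Neither group had a replicate, so no test was run: each value is given per library, and each 95% interval is exact and covers counting error only.

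In the newborn cerebellum, granule neurons descend from the rhombic lip, whereas Purkinje cells, inhibitory interneurons and astroglia descend from progenitors of the ventricular zone and the white matter. Astroglial progenitors, oligodendrocyte precursors and Pax2-positive interneuron precursors still divide at birth. Their mitosis uses the same machinery as that of granule precursors. Mki67 encodes a coat protein of mitotic chromosomes, Top2a a topoisomerase that untangles sister chromatids, and Kif11 a motor that separates the spindle poles.

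Promoters of late cell cycle genes share short elements, which are shown here for the mitotic genes that chose the nuclei. The sequences are from RefSeq (GRCm38.p6), 250 bases before to 50 bases after the start of the gene, and both strands were searched. Capitals mark CCAAT, the box bound by NF-Y, TTTGAA, the cell cycle homology region, and TTGGCGC, a form of the E2F site, or the reverse complement of each. The promoter of Mki67 lies at chr7:135716330-135716629 on the minus strand, that of Top2a at chr11:99024140-99024439 on the minus strand, and that of Kif11 at chr19:37376132-37376431 on the plus strand.
Mki67: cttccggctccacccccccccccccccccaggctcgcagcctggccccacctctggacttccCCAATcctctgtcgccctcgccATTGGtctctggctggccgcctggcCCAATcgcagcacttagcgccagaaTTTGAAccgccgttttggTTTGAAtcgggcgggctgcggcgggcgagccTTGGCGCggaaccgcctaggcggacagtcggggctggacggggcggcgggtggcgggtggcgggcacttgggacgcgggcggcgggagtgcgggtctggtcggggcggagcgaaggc
Top2a: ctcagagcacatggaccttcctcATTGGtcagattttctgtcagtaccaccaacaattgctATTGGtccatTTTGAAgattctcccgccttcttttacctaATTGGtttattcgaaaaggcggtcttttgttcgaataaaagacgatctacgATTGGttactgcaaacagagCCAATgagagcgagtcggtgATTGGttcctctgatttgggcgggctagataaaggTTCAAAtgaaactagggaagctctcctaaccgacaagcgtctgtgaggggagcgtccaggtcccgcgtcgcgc
Kif11: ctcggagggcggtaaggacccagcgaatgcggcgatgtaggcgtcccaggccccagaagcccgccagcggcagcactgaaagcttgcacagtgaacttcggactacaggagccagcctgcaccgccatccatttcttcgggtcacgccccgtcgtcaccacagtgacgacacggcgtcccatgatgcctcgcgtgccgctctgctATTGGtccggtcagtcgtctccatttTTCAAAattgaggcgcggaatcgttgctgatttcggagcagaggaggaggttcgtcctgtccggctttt
The Mki67 window held 3 matches to CCAAT, 2 to TTTGAA and 1 to TTGGCGC. The Top2a window held 6, 2 and 0, and the Kif11 window 1, 1 and 0. Of all 32851 promoters in the table, 37.4% held CCAAT, 17.9% TTTGAA and 2.45% TTGGCGC. Among the 52 promoters matched for 47 of 54 G2/M genes, the shares were 75% for CCAAT, 65.4% for TTTGAA and 13.5% for TTGGCGC. Among the 34 promoters matched for 31 of 43 S phase genes they were 67.6%, 17.6% and 17.6%. TTTGAA was thus common in the G2/M promoters and near the background in the S phase promoters. A match is a run of letters and not a measured site.

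The 98 nuclei were of several kinds. Only the glial arm was met by 17 control nuclei (42.5%, 27.0 to 59.1) and by 28 nuclei of the cKO library (48.3%, 35.0 to 61.8). Only the GABAergic arm was met by 14 (35%, 20.6 to 51.7) and 12 (20.7%, 11.2 to 33.4). Both arms were met by 9 (22.5%, 10.8 to 38.5) and 18 (31.0%, 19.5 to 44.5). The intervals of the libraries overlapped for each kind.

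Genes that the choice did not use showed what each kind held. Most glial-only nuclei were those of oligodendrocyte precursors by their genes: Olig1, Olig2, Pdgfra and Sox10 summed to at least 2 UMIs in 12 of 17 control nuclei and in 22 of 28 of the other library. Their summed oligodendrocyte list (10 genes, CPM meaning UMIs scaled to a total of 1e+06 for the same nuclei) stood at 8212 CPM in control and 10139 CPM in the cKO library, against 735 and 804 CPM in GABAergic-only nuclei. GABAergic-only nuclei led in the GABAergic progenitor list without the genes of the rule, at 1968 and 3921 CPM, against 508 and 386 CPM in glial-only nuclei. The astroglial list stood at 11497 and 11119 CPM in nuclei of both arms, at 7227 and 8547 CPM in GABAergic-only nuclei and at 3242 and 5212 CPM in glial-only nuclei. In dividing nuclei with Pax6 or Neurod1 (dividing granule nuclei) it stood at 9707 and 10652 CPM. In members of both arms, the glutamate transporter gene Slc1a3 and the transcription factor gene Pax3 were found together in all 9 control nuclei. In the cKO library they were found together in 16 of 18, as the rule favours.

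**Figure D1:**
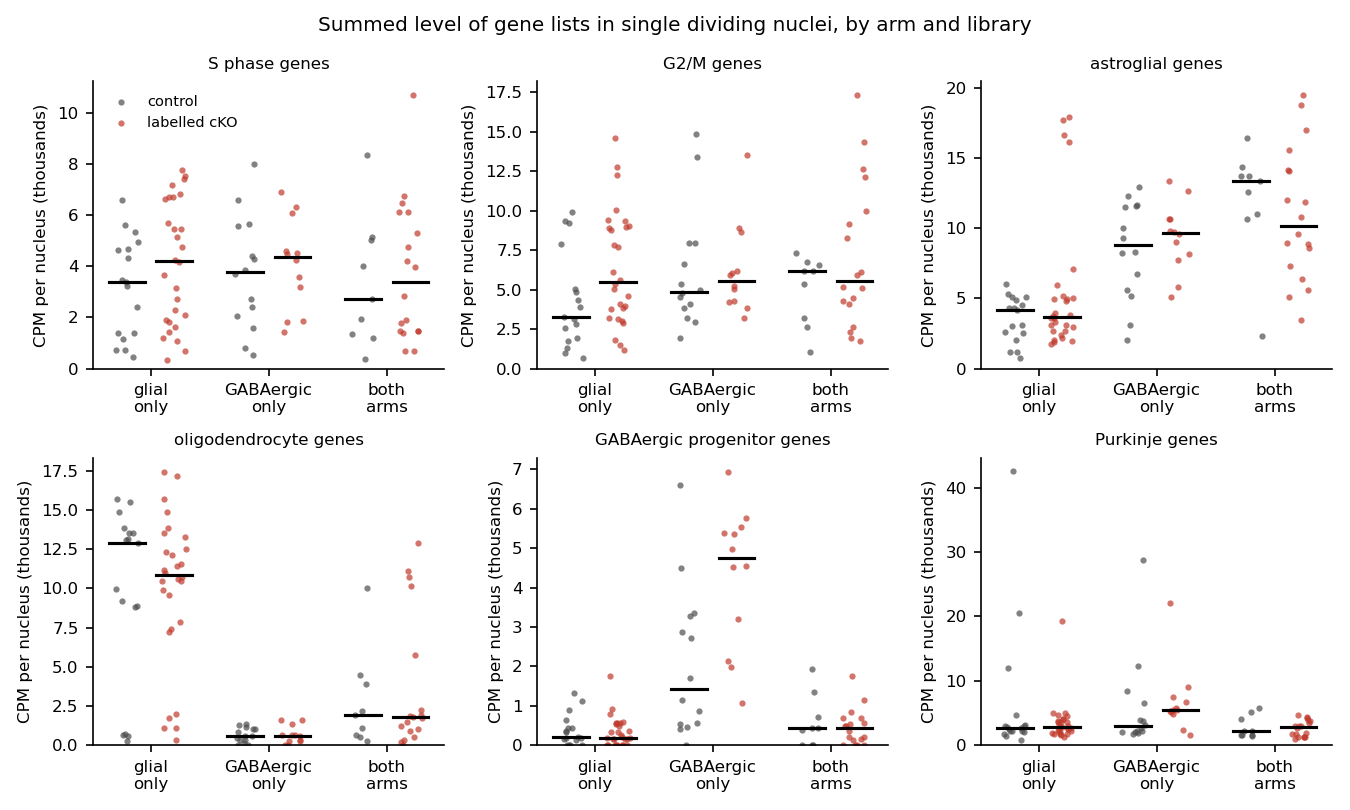
Summed CPM divided by 1000 (vertical axis) of 6 gene lists in each of the 98 nuclei, genes of the rule left out, by arm and library, with the median of each group as a black line. Oligodendrocyte genes are high in most glial-only nuclei, GABAergic progenitor genes in many but not all GABAergic-only nuclei and astroglial genes in most nuclei of both arms. Purkinje genes are high in a few nuclei of each library.

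The markers given for these nuclei were present, as the choice requires for most of them. Mki67 was at 410 CPM in control and 471 CPM in the cKO library, Top2a at 641 and 801 CPM, Slc1a3 at 405 and 835 CPM, Ptprz1 at 1162 and 1893 CPM, and Pax3 at 488 and 395 CPM. Mki67 and Top2a were found together in 29 of 40 and 47 of 58 nuclei. Markers of cells outside the neural lineages were low and those of neurons were not. The 8 microglial genes summed to 265 and 225 CPM, the 8 vascular and mesenchymal genes to 24.8 and 31.2 CPM with Cldn5, Rgs5, Col1a1 and Dcn at 0 in both, and the 6 ependymal and choroid plexus genes to 33.1 and 3.47 CPM with 5 of the 6 at 0 in each library and 8 control UMIs of Otx2. Of the microglial UMIs, P2ry12 made up 186 and 173 CPM, and Ptprc was at 0. The Purkinje list stood at 7351 and 4496 CPM in members and, in glial-only control nuclei, at 10051 CPM, above their oligodendrocyte list. Scrublet scored 3 control members and 4 members of the cKO library as doublets, and 0 members shared a barcode between the libraries.

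Depth was alike in the libraries over all members and less so within kinds. Median UMIs were 5985 and 5234.5 in glial-only members, 5009.5 and 3786 in GABAergic-only members and 4676 and 5084 in members of both arms. Members held a median of 5337.5 UMIs in control (2723 to 15183) and 4907 in the cKO library (2016 to 11160), and 2704 and 2450.5 genes. The pools differed in their mix of sexes: an Xist UMI was found in 45% of control members and 70.7% of members of the cKO library, and a UMI of a Y-linked gene in 55% and 32.8%. Over all nuclei past the filter these shares were 56.8% and 69.4% for Xist and 45.5% and 30.8% for Y-linked genes. The part of sex in the differences between the libraries was not tested, and values over members with an Xist UMI were computed.

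The targeted gene was not lower. Tox3 (chr8:90247040-90348343, GRCm38, minus strand), which encodes a chromatin protein with an HMG box, was at 211 CPM in control members (51 UMIs in 20 of 40 nuclei) and at 284 CPM in the cKO library (82 UMIs in 33 of 58 nuclei), a ratio of 1.35 (0.939 to 1.95). Over all nuclei past the filter it was at 108 and 122 CPM. The kit counts the polyadenylated end of transcripts and the deleted part of Tox3 is not given in the sources used here, so these UMIs do not check the deletion. The second library is therefore called the library labelled cKO, or cKO-labelled library, from here on. In GABAergic-only nuclei Tox3 was at 351 and 686 CPM, a ratio of 1.96 (1.17 to 3.28), and in glial-only nuclei at 111 and 78.5 CPM, a ratio of 0.709 (0.283 to 1.75). Atoh1, the factor that defines granule precursors, had 1 UMI in control members and 0 in the cKO-labelled library, and 39 and 3 UMIs over all nuclei.

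The share of members had a ratio near 1 over all nuclei and under 1 over the nuclei most like them, at the depth as deposited. Members made up 1.05% of all control nuclei (0.75 to 1.42, 40 of 3816) and 0.933% of all nuclei of the cKO-labelled library (0.709 to 1.20, 58 of 6217), a ratio of 0.890 (0.585 to 1.37). Of nuclei without a Pax6 or Neurod1 UMI they were 3.35% of 1193 and 1.80% of 3220, a ratio of 0.537 (0.353 to 0.825). Of nuclei that met either arm, dividing or not, they were 10.8% of 371 (7.82 to 14.4) and 5.42% of 1070 (4.14 to 6.95), a ratio of 0.503 (0.330 to 0.772). The denominators moved too: nuclei of either arm were 9.72% of all control nuclei and 17.2% of all nuclei of the cKO-labelled library.

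Against all dividing nuclei the order turned. Members were 10.5% of 381 dividing control nuclei (7.61 to 14.0) and 18.5% of 314 dividing nuclei of the cKO-labelled library (14.3 to 23.2), a ratio of 1.76 (1.16 to 2.70). Beside them, dividing nuclei with Pax6 or Neurod1 were 8.44% of all control nuclei (322 nuclei) and 3.54% of all nuclei of the cKO-labelled library (220 nuclei), 2.38-fold lower. A share of nuclei is relative, so fewer granule nuclei and more nuclei of the arms cannot be told apart in it.

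The dividing share had a ratio under 1 within each kind. Dividing glial-only nuclei were 12.3% of 138 in control and 5.98% of 468 in the cKO-labelled library, a ratio of 0.486 (0.257 to 0.946). With oligodendrocyte genes the shares were 24% of 50 and 11.6% of 189, a ratio of 0.485 (0.230 to 1.08), and without them 5.68% of 88 and 2.15% of 279, a ratio of 0.378 (0.0962 to 1.57). In GABAergic-only nuclei they were 13.6% of 103 and 4.56% of 263, a ratio of 0.336 (0.142 to 0.782). In nuclei of both arms they were 6.92% of 130 and 5.31% of 339, a ratio of 0.767 (0.327 to 1.94). The intervals for glial-only nuclei with and without oligodendrocyte genes and for nuclei of both arms included 1. Non-dividing glial-only nuclei held a median of 5853 UMIs in control and 4245.5 in the cKO-labelled library. Non-dividing nuclei of the GABAergic arm held 4306.5 and 3730. The part of depth in the shares within each kind was not tested.

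**Figure D2:**
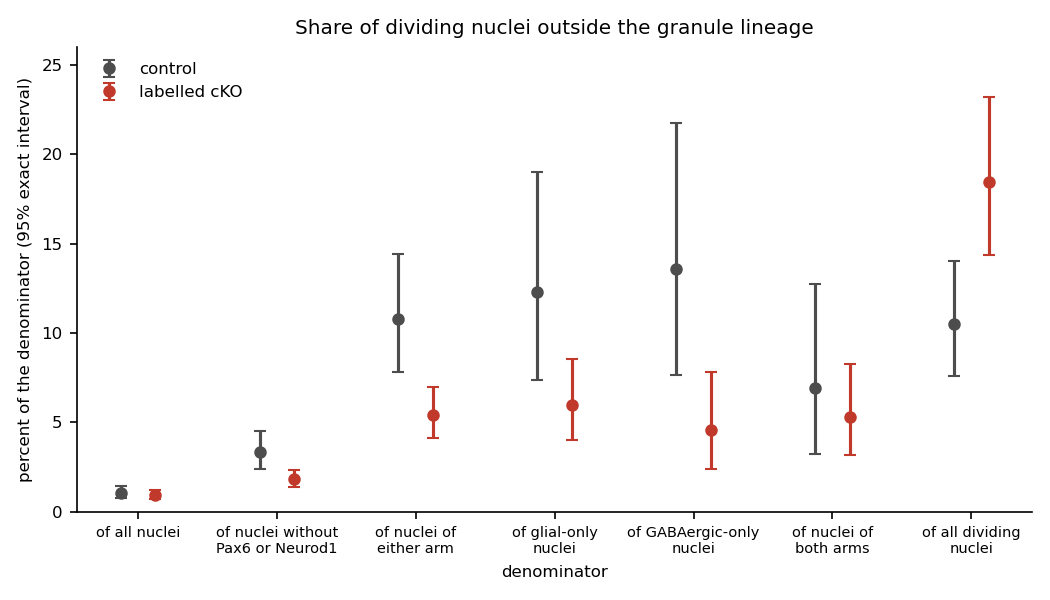
Members, or members of the kind named, as a percentage of each denominator (vertical axis), with exact 95% intervals, control in grey and the cKO-labelled library in red. The libraries overlap over all nuclei (1.05% and 0.933%), control is higher over nuclei of either arm (10.8% and 5.42%) and the cKO-labelled library is higher over all dividing nuclei (18.5% and 10.5%).

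The shares moved with depth. Nuclei were thinned to 3000 UMIs in a single random draw, which left out 520 control nuclei and 1086 of the cKO-labelled library as too shallow. In this draw 28 control nuclei and 57 nuclei of the cKO-labelled library met the rule. The ratio over nuclei of either arm was 0.844 (0.528 to 1.38), still under 1 but with an interval that included 1. Over all nuclei the ratio was then 1.31 (0.818 to 2.14). The mean over all possible thinnings to that depth was 33.8 and 57.5 members, with a ratio of 0.732 over nuclei of either arm and 1.09 over all nuclei. Pax6 and Neurod1 UMIs were also found in nuclei of another type. Among microglial nuclei (Csf1r, C1qa, C1qb and Mrc1 summing to at least 4 UMIs, a set chosen after seeing the data in place of one that also held P2ry12 and Cx3cr1), which should lack these genes, 28.3% of 46 in control (16.0 to 43.5) and 13.2% of 136 in the cKO-labelled library (8.04 to 20.1) carried a UMI of either, at median depths of 3212.5 and 2908.5 UMIs. The part of free RNA in the shares of members was not tested. Only that criterion, at 1 UMI, kept out 27 further control nuclei and 42 of the cKO-labelled library. On the dividing side, 10 and 7 members stood just inside with a sum of 3, and 19 and 32 nuclei just outside with a sum of 2.

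Gene levels were compared between the libraries over UMIs summed across the members. There were 5453 genes with at least 20 UMIs. Of these, 270 were at least 2-fold higher in the cKO-labelled library (4.95%) and 260 at least 2-fold lower (4.77%), and the median log2 ratio was 0.01. The ratio is always the cKO-labelled library over control.

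Apoe, Sparcl1 and Gdf10, known from astroglia, were among the genes with the highest ratios. Apoe (chr7:19696109-19699188), the apolipoprotein that glia secrete, was at 120.0 CPM in control and 666 CPM in the cKO-labelled library, a ratio of 5.55 (3.74 to 8.51). It was found in 13 of 40 and 29 of 58 nuclei, with at most 8 UMIs in a control nucleus and 38 in the other library. In the cKO-labelled library 7 nuclei with at least 10 UMIs each held 77.1% of its UMIs. In microglial nuclei Apoe was at 4172 and 4772 CPM, or at 575 and 1150 CPM by the wider set of genes, and the part of free microglial RNA in the members' values was not tested. Sparcl1, a secreted matrix protein of astrocytes, was at 145 and 582 CPM, a ratio of 4.02 (2.78 to 5.97). For Sparcl1, 6 such nuclei of the cKO-labelled library held 59.5% of its UMIs there. Gdf10, a ligand of the BMP family known from Bergmann glia, was at 49.6 and 184 CPM, a ratio of 3.70 (1.95 to 7.61). In nuclei of both arms Apoe was at 333 and 1386 CPM and Sparcl1 at 599 and 1109 CPM. In GABAergic-only nuclei Apoe was at 67.9 and 98 CPM and Sparcl1 at 33.9 and 58.8 CPM, with intervals that included 1.

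Glis3, a zinc finger transcription factor, had the highest ratio, at 33.1 and 215 CPM, 6.49 (3.10 to 15.7). Its UMIs sat in few nuclei: 46 of 62 in the cKO-labelled library came from 2 nuclei, with 31 and 15 UMIs, and without the 3 deepest members of each library its ratio was 3.02. Agbl4, a carboxypeptidase that trims tubulin, was likewise at 91.0 and 260 CPM with 53.3% of its UMIs in the cKO-labelled library from 1 nucleus. Agbl4 was not higher in each kind: GABAergic-only nuclei held 17 UMIs in control and 0 in the cKO-labelled library, and nuclei of both arms 3 and 60.

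Other higher genes, apart from A330015K06Rik, were spread over more nuclei. Rad51b, which acts in recombination repair, was at 124 and 374 CPM (ratio 3.02, 2.0 to 4.68; 14 and 35 nuclei), and Stil, needed to duplicate centrioles, at 62.1 and 184 CPM (2.96, 1.64 to 5.66; 13 and 25 nuclei). Ncald, a neuronal calcium sensor, was at 145 and 419 CPM with a ratio of 2.90 (1.97 to 4.35). Shisa6, a partner of AMPA receptors, had a ratio of 3.01, and Ldlrad3, a receptor of the LDL receptor family, one of 3.05. The antisense transcript A330015K06Rik had a ratio of 2.93 that was 0.991 without the 3 deepest members of each library. It was found in 5 and 12 nuclei. In the cKO-labelled library 2 nuclei, both scored as doublets, held 35 of its 49 UMIs.

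**Figure D3:**
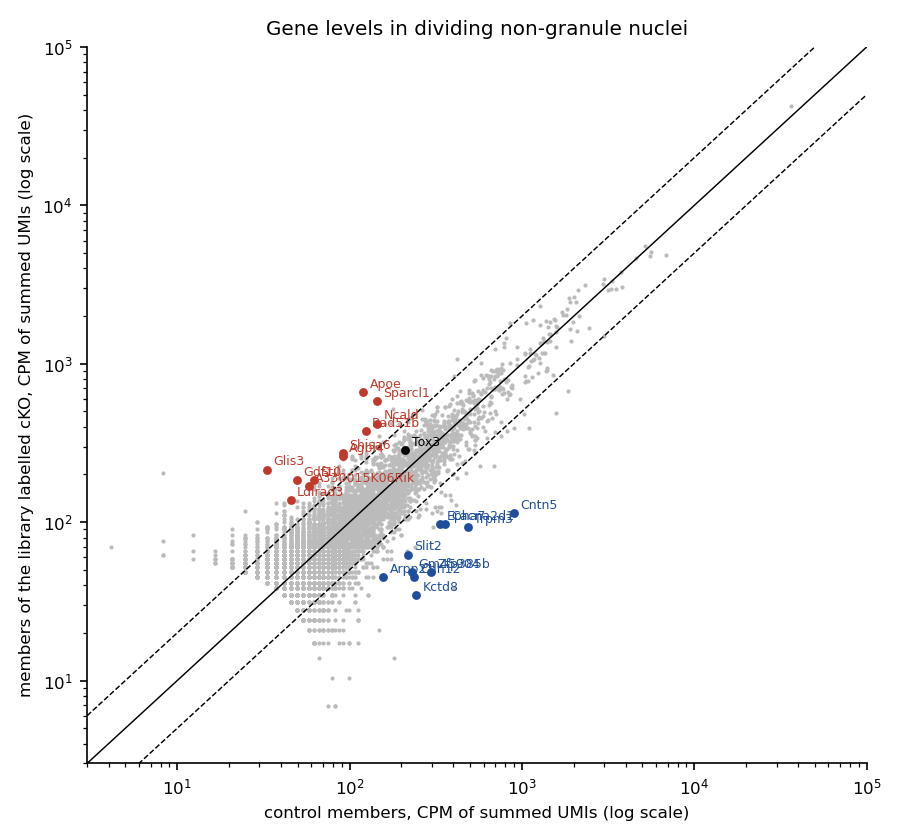
Level of each gene in control members (horizontal axis) and in members of the cKO-labelled library (vertical axis), CPM on log scales, for genes with at least 20 UMIs. Dashed lines mark 2-fold, and red and blue points are the named genes with the highest and the lowest ratios, among them Apoe at 120.0 and 666 CPM and Cntn5 at 898 and 114 CPM, with Tox3 in black.

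Among the named genes Cntn5, a contactin of axons, had the lowest ratio over all members. It was at 898 CPM in control and 114 CPM in the cKO-labelled library, a ratio of 0.127 (0.0856 to 0.184). Of its 217 control UMIs, 207 came from 4 nuclei, which held 57, 55, 51 and 44, and Scrublet scored 2 of the 4 as doublets. The other control members held 0 to 3 UMIs each. In the cKO-labelled library, 1 nucleus held 15 of 33 UMIs. Cntn5 was thus high in a few control nuclei and near 0 in most nuclei of both libraries.

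Of those 4 control nuclei, the 3 glial-only ones were high in the Purkinje list, at 42568, 20552 and 12033 CPM, and the GABAergic-only one stood at 2700 CPM, near the control median of 2594. The UMIs of the 4 of Rora, a nuclear receptor that Purkinje cells need, were 298, 111, 24 and 18, and those of the adhesion gene Tenm2 were 132, 82, 65 and 23. They held 12897, 12602, 7978 and 15183 UMIs, against a median of 5337.5. The 3 glial-only nuclei among them had 0 or 1 UMI of Slc1a3 and so met the glial arm through Ptprz1. Without the 3 deepest members of each library, which takes out 3 of the 4, Cntn5 had a ratio of 0.191, Zfp385b 0.212, Cdh12 0.216, Trpm3 0.176, Epha7 0.856 and Rora 0.943. In the same single draw of nuclei thinned to 3000 UMIs, with the members chosen anew, the direction turned for Cntn5 (1.35), Zfp385b (1.12), Cdh12 (1.47), Gm45904 (1.23) and Epha7 (3.44). Among the higher genes it turned for Ldlrad3 (0.860).

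Kctd8, an auxiliary subunit of GABA-B receptors, had 0 UMIs in GABAergic-only nuclei of the cKO-labelled library, and 3 such control nuclei held most of its control UMIs. Over all members it was at 244 and 34.7 CPM, a ratio of 0.142 (0.0648 to 0.280), with UMIs in 15 of 40 control nuclei and 7 of 58. GABAergic-only nuclei held 46 control UMIs and 0 in the cKO-labelled library, and 3 control nuclei with at least 10 UMIs each held 66.1% of all control UMIs. These 3 met only the GABAergic arm and held 10, 12 and 17 UMIs of Kctd8. They held 0, 2 and 2 UMIs of the GABAergic progenitor list without the genes of the rule, and their cell type was not tested. In dividing granule nuclei Kctd8 was at 838 and 148 CPM, a ratio of 0.177 (0.152 to 0.204), and in microglial nuclei at 65.6 and 81.3 CPM, or at 323 and 170 CPM by the wider set of microglial genes. Slit2, a guidance cue, was at 219 and 62.4 CPM, Cacna2d1, a calcium channel subunit, at 356 and 97.1 CPM and Arpp21 at 157 and 45.1 CPM. The antisense transcript Gm45904 was at 232 and 48.5 CPM.

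**Figure D4:**
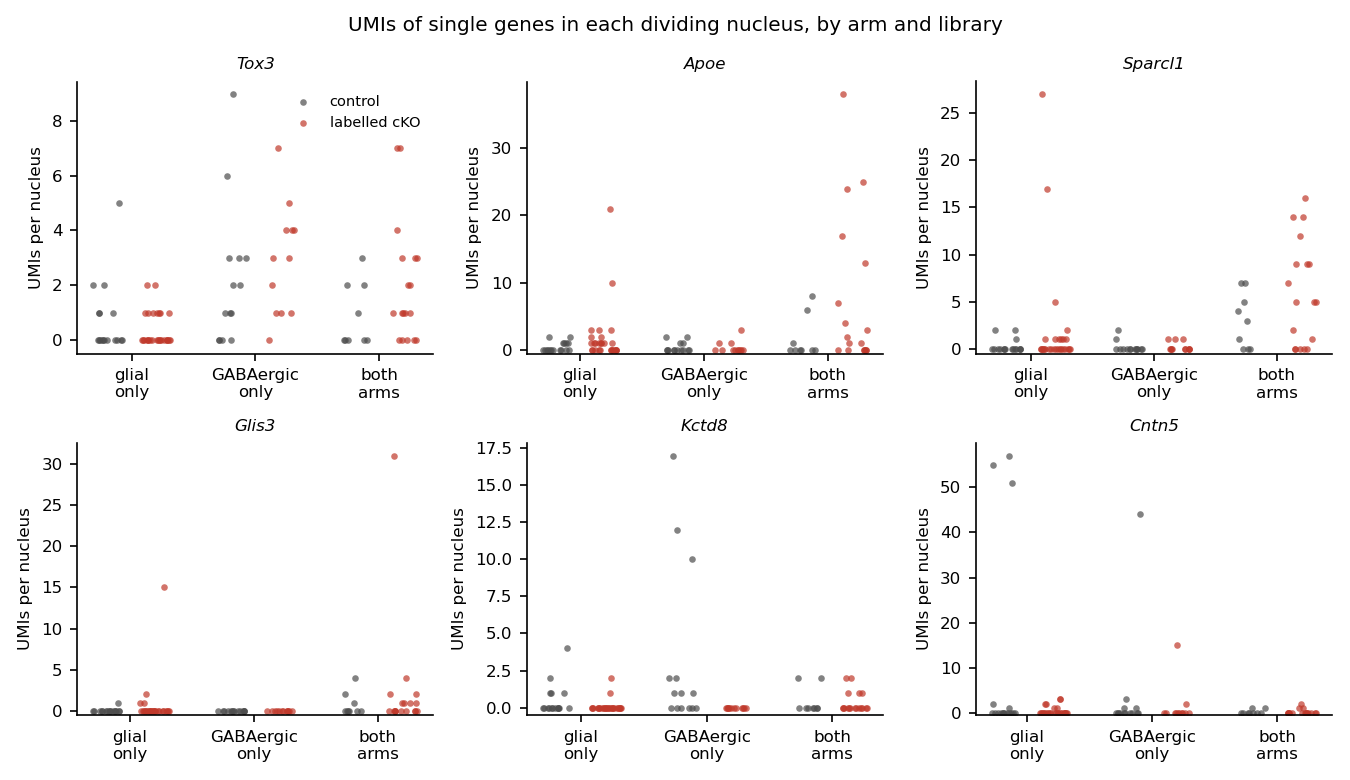
UMIs of 6 genes in each member (vertical axis), by arm and library. Apoe and Sparcl1 reach 38 and 27 UMIs in the cKO-labelled library and at most 8 and 7 in control, Glis3 is high in 2 nuclei of the cKO-labelled library and Cntn5 in 4 control nuclei, while Kctd8 is at 0 in all 12 GABAergic-only nuclei of the cKO-labelled library.

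The cell cycle genes were higher as a group. Of 40 G2/M genes measured apart from the genes of the rule, 33 were higher in the cKO-labelled library and 7 lower, 5 and 1 of them past 2-fold (background 4.95% and 4.77%), with a median log2 ratio of 0.37 against 0.01 for all genes. Of 26 S phase genes, 20 were higher and 6 lower, 2 and 0 past 2-fold, with a median of 0.40. The G2/M genes past 2-fold were Cenpe, a kinetochore motor, at 161 and 416 CPM (ratio 2.58, 1.78 to 3.80), Smc4 of condensin at 174 and 423 CPM (2.43, 1.70 to 3.54), Anln of the cleavage furrow at 78.6 and 180.3 CPM (2.29, 1.33 to 4.11), Ncapd2 of condensin at 124 and 253 CPM (2.04, 1.32 to 3.23) and Kif2c at 41.4 and 83.2 CPM (2.01, 0.927 to 4.71). Tubb4b, a tubulin, was lower, at 53.8 and 24.3 CPM. The S phase genes past 2-fold included Brip1, a helicase, at 103 and 215 CPM (2.08, 1.29 to 3.45).

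The intervals of the libraries overlapped for the balance of the phases. Summed S phase genes stood at 2999 CPM in control and 3737 CPM in the cKO-labelled library, a ratio of 1.25 (1.13 to 1.37), and G2/M genes at 4857 and 6472 CPM, a ratio of 1.33 (1.24 to 1.43). G2/M genes made up 61.8% of these UMIs in control (59.6 to 64.0) and 63.4% in the cKO-labelled library (61.6 to 65.1). The ratio of G2/M genes was highest in glial-only nuclei, at 1.57 (1.40 to 1.76), with a median over nuclei of 3253 CPM in 17 control nuclei and 5493 CPM in 28 of the cKO-labelled library. In GABAergic-only nuclei the ratio was 1.13 (0.977 to 1.31), and in nuclei of both arms 1.19 (1.03 to 1.39). Of 108252 UMIs in glial-only control nuclei, the 3 nuclei high in Cntn5 held 12897, 12602 and 7978. Their G2/M genes stood at 698, 3253 and 5014 CPM, and the glial-only ratio without these nuclei was not computed. Single nuclei ranged from 698 to 14839 CPM in control and from 1204 to 17364 CPM in the cKO-labelled library, so the libraries overlapped over most of their range. The S phase median log2 ratio of 0.40 was 0.03 over nuclei with a dividing sum of at least 5, 0.07 after thinning and 0.67 over members with an Xist UMI, and the G2/M median of 0.37 was 0.16 after thinning and 0.59 over members with an Xist UMI.

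Cyclins of G1 did not follow. Of 6 genes measured in that list, 2 were higher and 4 lower, with Ccnd2 at 232 and 177 CPM and Ccnd1 at 57.9 and 38.1 CPM. The non-dividing nuclei of the same arms, whose sum of Mki67, Top2a and Kif11 was 0, had 848 and 852 CPM of S phase genes and 934 and 918 CPM of G2/M genes. Dividing granule nuclei went the other way, with ratios of 0.826 (0.795 to 0.858) for S phase genes and 0.943 (0.916 to 0.970) for G2/M genes.

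Astroglial genes were higher in the cKO-labelled library in 12 of 13 genes measured, 4 of them past 2-fold (background 4.95%), with a median log2 ratio of 0.38. Beside Apoe and Gdf10 these were Tnc, a matrix glycoprotein, at 236 and 485 CPM (ratio 2.06, 1.5 to 2.85) and Aldh1l1, a folate enzyme of astrocytes, at 29.0 and 100.5 CPM (3.47, 1.49 to 9.39). Ednrb, an endothelin receptor, was at 149 and 288 CPM. The factors Nfia, Nfib and Nfix had ratios of 1.08, 0.935 and 1.10. The mix of kinds entered this list: in nuclei of both arms, where it was highest, its summed level had a ratio of 0.967 (0.870 to 1.08), against 1.61 (1.41 to 1.83) in glial-only nuclei. In glial-only nuclei the medians were 4186 and 3662 CPM and the highest nuclei 6017 and 17934 CPM, so the medians and the summed level differed in direction. In dividing granule nuclei 18 of 20 astroglial genes were higher, 6 past 2-fold, with a median of 0.73. Of all 12467 genes measured there, 467 were past 2-fold higher and 479 past 2-fold lower, with a median of -0.04.

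All 8 oligodendrocyte genes measured were higher, with 0 past 2-fold and a median log2 ratio of 0.59. Pdgfra, the receptor that drives oligodendrocyte precursors, was at 393 and 464 CPM (1.18, 0.902 to 1.55), Sox10 at 82.7 and 139 CPM (1.68, 0.957 to 3.03) and the matrix gene Tnr at 265 and 510 CPM (1.92, 1.43 to 2.62). With the kinds weighted equally the median was 0.20, and within glial-only nuclei 7 of 8 genes were higher with a median of 0.26, while their summed list had medians over nuclei of 12899 and 10882 CPM. The summed list of glial-only nuclei was higher in the cKO-labelled library and the median over nuclei lower, so they differed in direction. The 3 glial-only control nuclei high in Cntn5 were at 698, 238 and 627 CPM of this list. They held 12897, 12602 and 7978 of the 108252 UMIs that the control sum was scaled to, and the values without them were not computed. In dividing granule nuclei 7 of 8 were higher, 4 past 2-fold (467 of 12467 over all genes there), with a median of 0.98 and a summed ratio of 1.57 (1.48 to 1.67). In non-dividing nuclei of the same arms 10 of 10 were higher, with a median of 0.30.

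GABAergic progenitor genes differed in direction between all members and GABAergic-only nuclei. Over all members 1 of 8 genes was higher and 7 lower, 0 past 2-fold, with a median log2 ratio of -0.19 that was 0.15 with the kinds weighted equally. The higher gene was Pax2, the factor of interneuron precursors, at 141 and 257 CPM (1.82, 1.20 to 2.82). Lhx1 was at 112 and 65.9 CPM, Tfap2a at 116 and 76.3 CPM and Gad1, the enzyme that makes GABA, at 108 and 83.2 CPM. In GABAergic-only nuclei the summed list had a ratio of 1.99 (1.62 to 2.46), and 2.08 (1.66 to 2.62) without the top nucleus of each library. Its 14 control nuclei ran from 0 to 6603 CPM with a median of 1425, and its 12 nuclei of the cKO-labelled library from 1063 to 6944 CPM with a median of 4763. The 3 control nuclei high in Kctd8 were at 0, 414 and 454 CPM of this list. Pax2 in GABAergic-only nuclei was at 373 and 1333 CPM, a ratio of 3.57 (2.32 to 5.59).

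Purkinje genes had lower sums in the cKO-labelled library but not lower medians over nuclei. Of 8 Purkinje genes measured, 1 was higher and 7 lower, 0 past 2-fold, with a median log2 ratio of -0.56. Rora was at 2983 and 1494 CPM (0.501, 0.444 to 0.565), and 298 of its 721 control UMIs came from 1 nucleus. With the top nucleus of each library left out its ratio was 0.763. Ebf1 was at 1506 and 853 CPM, Itpr1, a calcium release channel, at 534 and 274 CPM and Dab1, of Reelin signalling, at 1398 and 915 CPM. Car8 was higher, at 203 and 315 CPM. Summed Purkinje genes had a ratio of 0.401 (0.362 to 0.445) in glial-only nuclei, where 549 of 1088 control UMIs came from 1 nucleus. The other glial-only control nuclei high in Cntn5 held 259 and 96 of them. Without the top nucleus of each library, which keeps those with 259 and 96, the ratio was 0.526 (0.460 to 0.600). In GABAergic-only nuclei the ratio was 1.44 (1.27 to 1.63). The median over nuclei of the summed list was 2594 CPM in control and 2989 CPM in the cKO-labelled library, and it was 2622 and 2850 CPM in glial-only nuclei, 2888 and 5410 CPM in GABAergic-only nuclei and 2154 and 2806 CPM in nuclei of both arms. The median log2 ratio was 0.15 with 1 UMI of Pax6 or Neurod1 allowed and 0.22 after thinning. Of 8 genes of differentiated neurons 2 were higher and 6 lower, with Tubb3 past 2-fold at 99.3 and 45.1 CPM.

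Signalling lists had few measured genes. All 5 Notch genes measured were higher, 1 past 2-fold, with a median log2 ratio of 0.70: Notch1 was at 70.3 and 114 CPM, Rbpj, which carries the signal to chromatin, at 74.5 and 114 CPM and Notch3 at 33.1 and 69.3 CPM (2.10, 0.884 to 5.50). The summed 16 genes had a ratio of 1.89 (1.42 to 2.53) over all members and 1.08 (0.721 to 1.66) in nuclei of both arms, where they were highest, at 777 and 842 CPM. Of 7 genes of Sonic hedgehog signalling 5 were higher and 2 lower. Gli2, an activator of its targets, was past 2-fold lower, at 211 and 104 CPM (0.493, 0.303 to 0.789), and Ptch1, receptor and target, was at 149 and 218 CPM. In dividing granule nuclei Gli2 was at 445 and 254 CPM, a ratio of 0.571 (0.503 to 0.646). Of 6 SOX genes 4 were higher, led by Sox6, a factor of oligodendrocyte precursors, at 1274 and 2319 CPM (1.82, 1.59 to 2.09). The TOX genes Tox, Tox3 and Tox4 had ratios of 1.37, 1.35 and 1.40.

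Granule genes had a lower summed level than in dividing granule nuclei. Apart from Pax6 and Neurod1, which the rule set to 0, the granule list summed to 1659 CPM in control members and 1317 CPM in the cKO-labelled library, against 3428 and 2225 CPM in dividing granule nuclei. Of 5 genes measured 2 were higher and 3 lower. Btbd11 was at 137 and 69.3 CPM (0.508, 0.276 to 0.912) and in dividing granule nuclei at 505 and 73.7 CPM. Ntn1, a guidance cue, was at 137 and 142 CPM in members and at 297 and 44.1 CPM in dividing granule nuclei. The part of free granule RNA in these values was not tested. The 4 genes of unipolar brush cells, another type of the rhombic lip, summed to 40 UMIs in control members and 6 in the cKO-labelled library. The 9 stress and immediate early genes summed to 62 and 63 UMIs.

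Within glial-only nuclei 2783 genes had at least 20 UMIs, of which 217 (7.8%) were at least 2-fold higher and 182 (6.54%) at least 2-fold lower. Sparcl1 was highest by ratio, at 46.2 and 407 CPM (8.81, 3.56 to 28.2), with UMIs in 3 of 17 and 10 of 28 nuclei. Of its 57 UMIs in the cKO-labelled library, single nuclei held 27 and 17, both without a UMI of Olig1, Olig2, Pdgfra or Sox10. Angpt2, an angiopoietin made by oligodendrocyte precursors, was at 111 and 414 CPM (3.74, 1.98 to 7.64) and was spread over 10 and 24 nuclei. Tcf7l2, a Wnt effector of differentiating oligodendrocytes, was at 129 and 378 CPM (2.93, 1.60 to 5.71) and Cenpe at 111 and 386 CPM. Nhsl1 and Slc24a3 had ratios of 3.25 and 2.88.

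Of the genes with the lowest ratios in glial-only nuclei, several had most of their control UMIs in the 3 control nuclei high in Cntn5. Galntl6 was at 1358 and 150 CPM (0.110, 0.0664 to 0.175), Tenm2 at 3575 and 785 CPM (0.220, 0.176 to 0.272), Meg3, a long noncoding RNA of neurons, at 1977 and 536 CPM (0.271, 0.205 to 0.354) and Itpr1 at 702 and 199.9 CPM. Trpm3, Immp2l, Rora and Cdh8 had ratios of 0.217, 0.269, 0.296 and 0.320. The 3 of 17 control nuclei held 120 of 147 Galntl6 UMIs, 279 of 387 of Tenm2, 173 of 214 of Meg3, 60 of 76 of Itpr1 and 433 of 514 of Rora, against 15 of 64 of Trpm3. Without them the ratio was 0.415 for Galntl6, 0.544 for Tenm2, 0.977 for Meg3, 0.934 for Itpr1, 1.30 for Rora and 0.196 for Trpm3, an alternative chosen after seeing the data. Over all members Tenm2 had a ratio of 0.550 and Cdh8 of 1.20 without the 3 deepest members of each library.

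Within the 23 control nuclei and 30 nuclei of the cKO-labelled library that met the GABAergic arm, 3340 genes were measured, of which 222 (6.65%) were at least 2-fold higher and 231 (6.92%) at least 2-fold lower. Apoe led, at 157 and 943 CPM (6.0, 3.77 to 9.99), before Ncald at 74.9 and 276 CPM and Sparcl1 at 225 and 748 CPM. Epha3, an ephrin receptor, was at 135 and 404 CPM and Xylt1, which starts proteoglycan chains, at 135 and 418 CPM. Rad51b and Fign had ratios of 3.11 and 2.92. Kctd8 was lowest, at 375 and 47.2 CPM (0.126, 0.0482 to 0.279), followed by Cacna2d1 at 390 and 60.6 CPM. Robo2, a receptor of Slit proteins, was at 1019 and 317 CPM (0.311, 0.218 to 0.436). Nkain2, Pde1c, Fut8 and Meg3 had ratios of 0.277, 0.304, 0.330 and 0.351. Of 169 control UMIs of Meg3 in this arm, single nuclei held 88, 35 and 22. In the cKO-labelled library a single nucleus held 28 of 66.

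Set beside like nuclei, the higher genes differed in reach. The nuclei come from the same 2 libraries, so the values are given side by side. Apoe had a ratio of 5.55 in members, 2.26 (1.96 to 2.61) in dividing granule nuclei and 1.64 (1.51 to 1.77) in non-dividing nuclei of the same arms. For Sparcl1 these were 4.02, 2.41 (2.11 to 2.75) and 1.22 (1.12 to 1.34), and for Gdf10 3.70, 3.23 (2.67 to 3.92) and 1.97 (1.60 to 2.44). Rad51b and Stil, at 3.02 and 2.96 in members, had 1.09 (0.971 to 1.23) and 1.07 (0.861 to 1.32) in dividing granule nuclei. Among the lower genes, Cntn5 had 0.127 in members, 1.62 (1.47 to 1.79) in dividing granule nuclei and 0.924 (0.886 to 0.964) in non-dividing nuclei, where it was at 1989 and 1838 CPM. Trpm3 had 0.193, 1.74 and 0.998. Kctd8 was low in both kinds of dividing nuclei and had 1.13 (0.919 to 1.40) in non-dividing nuclei of the arms.

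**Figure D5:**
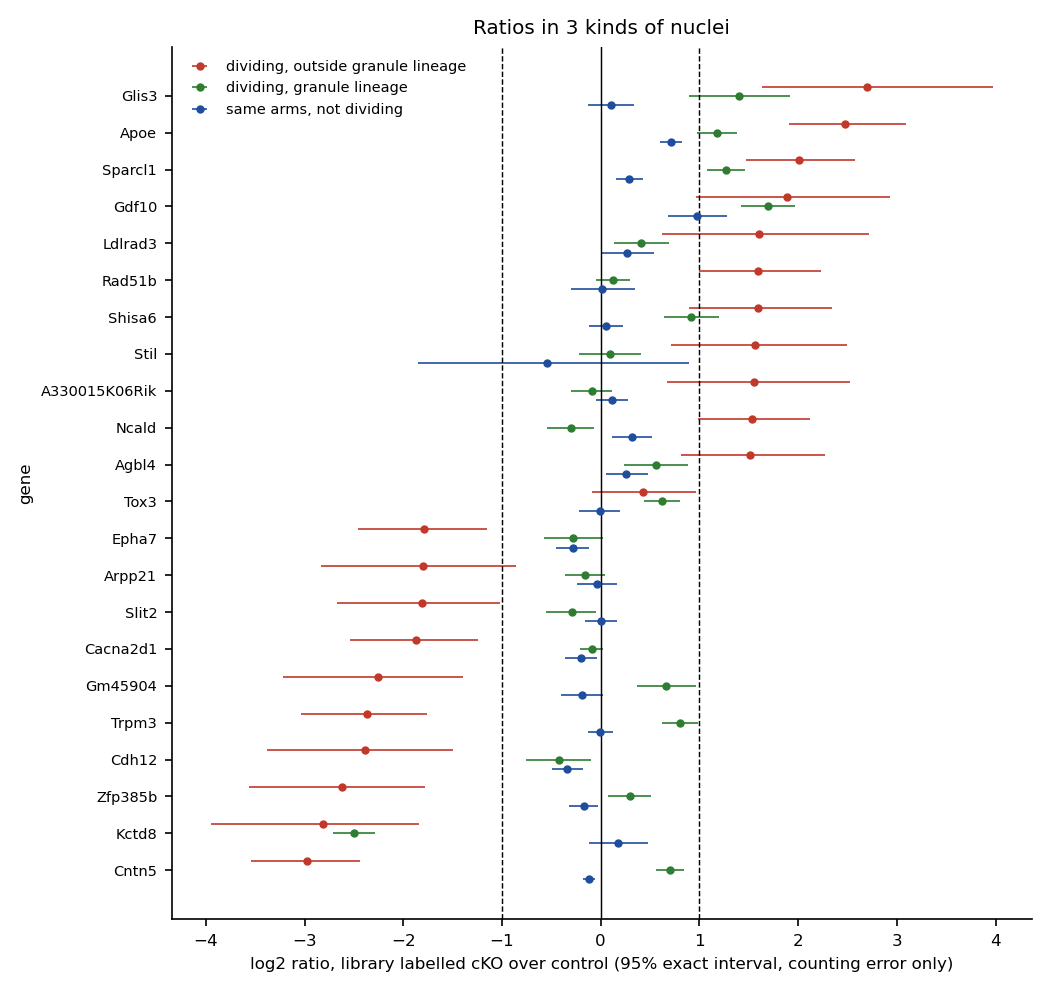
Log2 ratio of the cKO-labelled library over control (horizontal axis, exact 95% intervals for counting error) of the named genes with the highest and the lowest ratios in members, and Tox3, in members (red), dividing granule nuclei (green) and non-dividing nuclei of the same arms (blue), where a gene had at least 20 UMIs. The genes were chosen on the red values, and for Apoe, Sparcl1 and Gdf10 the green points lie on the same side, while for Cntn5 and Trpm3 they lie on the other.

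Against dividing granule nuclei, members stood out by genes of oligodendrocyte precursors. Of 15 genes with the highest ratio of members over dividing granule nuclei in both libraries, Sox10, which specifies oligodendrocytes, was at 82.7 and 139 CPM in members and at 5.77 and 18.1 CPM in dividing granule nuclei. Tnr was at 265 and 510 CPM against 17.8 and 72.3 CPM, and Sox6 at 1274 and 2319 CPM against 205 and 433 CPM. Scrg1, Pcdh11x, Xylt1, Sntg1, Adam12, Stk32a and Arhgef3 were also among them, as were Pstpip2 at 128 and 111 CPM and Col19a1 at 223 and 142 CPM. In each library all 15 were higher in glial-only than in GABAergic-only nuclei. The noncoding transcripts 4933407I08Rik, Gm45025 and Gm42948 completed the group.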

How the data were processed

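Nuclei were isolated from snap-frozen cerebella with a Singulator and made into libraries with the 10x Chromium 3′ kit, version 3.1. Per the methods, reads were processed by the authors in Cell Ranger 7.0.1 against mm10, and the deposited values are raw counts of UMIs per gene and barcode. Whether intronic reads were counted is not given in the sources used here. The libraries held 22325208 UMIs over 4857 barcodes (control) and 33726533 over 6946 (cKO), for 32285 genes, and shared 9 barcodes. The correction for free RNA that the study applied was not repeated here.

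UMIs were summed over the members of each library and divided by all UMIs of those members (CPM). Intervals at 95% are Clopper-Pearson for shares, Poisson for levels and conditional binomial for ratios. A gene was measured where the libraries together held at least 20 UMIs, and a ratio of at least 2 or at most 0.5 was counted as past 2-fold. With 1 library per group no test was run. Genes of the rule were left out of the lists. Scrublet (scanpy 1.11.5) marked the highest 0.8% of scores per 1000 barcodes as doublets, which were kept except in 1 alternative. Genes named were Tox3, Atoh1, the genes of the rule and the lists, and by ratio the 12 highest and 12 lowest in members (8 and 8 in glial-only nuclei and in the GABAergic arm) with at least 50 UMIs and a UMI in at least 10 members of the higher library, and the 15 highest over dividing granule nuclei. Some genes that meet these criteria are not reported here. The members and lists were chosen with earlier results of these data known. The scripts (Python 3.11.15, numpy 2.4.6, scipy 1.17.1, pandas 2.3.3) were tested on simulated data. Alternatives covered the thresholds, the filters, doublets, depth, scaling and the weighting of nuclei and arms.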

Additional observations from a re-analysis of the deposited data

Results flagged for a closer look

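Several ratios of the cKO-labelled library over control lay on opposite sides of 1 in different kinds of nuclei, with intervals that did not include 1 in the gene lists. With 1 library per group these differences were not tested. Summed S phase genes had a ratio of 1.25 in members and 0.826 in dividing granule nuclei, and G2/M genes one of 1.33 and 0.943. Summed Purkinje genes had a ratio of 0.401 in glial-only members and 1.44 in GABAergic-only members, and one of 0.612 over all members against 1.32 in dividing granule nuclei. The 3 glial-only control nuclei high in Cntn5 held 549, 259 and 96 Purkinje UMIs. The medians over nuclei were not lower, at 2622 and 2850 CPM in glial-only members and at 2594 and 2989 CPM over all members.

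Single genes did the same. Ncald, a calcium sensor, had a ratio of 2.90 in members and 0.811 in dividing granule nuclei. The other genes were lower in members and higher in dividing granule nuclei. Cntn5 had ratios of 0.127 and 1.62, Zfp385b of 0.163 and 1.22, Trpm3 of 0.193 and 1.74, and Gm45904 of 0.209 and 1.59. For Cntn5, 4 control nuclei held 95.4% of the control UMIs.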

How the results depend on the processing

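With 1 library per group, no replicate could be left out. No paired analysis was possible because each group has 1 library and the labels carry no replicate numbers. Of the values that answer a comparison, 171 under the alternatives stayed near the reported value or within its interval and 27 moved further. Of 126 ratios and medians among them, 8 lay on the other side of no difference in 3 results. The ratio of shares over all nuclei (0.890) was 1.05 with a dividing sum of at least 5, 1.31 thinned to 3000 UMIs and 1.09 as the mean over thinnings. The GABAergic progenitor median (-0.19) was 0.13 with 1 UMI of Pax6 or Neurod1 allowed, 0.03 with nuclei weighted equally and 0.15 with the arms weighted equally. The Purkinje median (-0.56) was 0.15 with 1 UMI of Pax6 or Neurod1 allowed and 0.22 after thinning. Thinning to 3000 UMIs moved the ratio of shares to 0.899 over nuclei without Pax6 or Neurod1 and to 0.844 over nuclei of either arm, the genes at least 2-fold lower to 140, the S phase and G2/M medians (log2) to 0.0740 and 0.16 and the G2/M share of control to 64.1%. It turned the ratios of Ldlrad3 (0.860), Cntn5 (1.35), Zfp385b (1.12), Cdh12 (1.47), Gm45904 (1.23), Epha7 (3.44), Rora (1.25) and Itpr1 (1.15). Itpr1 was also at 1.11 with 1 UMI of Pax6 or Neurod1 allowed, Nhsl1 at 0.911 with a dividing sum of at least 2, and Cdh8 (0.900) above 1 in 6 alternatives, at 1.0 to 1.77. Thinning was a single random draw, apart from the mean over thinnings, and left 28 control members and 57 of the cKO-labelled library. The genes at least 2-fold higher and lower were 78 and 72 with at least 50 UMIs, 2662 and 3130 with no filter, and 835 and 800 at 1.5-fold. With the arms weighted equally, 428 genes were at least 2-fold higher, the oligodendrocyte median was 0.20 and Tenm2 turned to 1.05. A dividing sum of at least 5 gave an S phase median of 0.027, G2/M shares of 64.8% and 66.6% and a ratio of 1.13 for Galntl6. A sum of at least 2 gave an oligodendrocyte median of 0.23 and a G2/M share of 59.2% in the cKO-labelled library. Allowing 1 UMI of Pax6 or Neurod1 gave an S phase median of 0.12 and 33% glial-only members in the cKO-labelled library. Stricter arm sums gave a G2/M median of 0.54, removing doublets a Purkinje median of -1.24, and keeping the genes of the rule G2/M shares of 67.4% and 68.3%. Among alternatives chosen after seeing the data, members with an Xist UMI gave S phase and G2/M medians of 0.67 and 0.59, and leaving out the 3 deepest members of each library turned A330015K06Rik to 0.991. The causes were not tested. Depth limits single genes with few UMIs: the intervals of Kif2c and Notch3, both past 2-fold, included 1. No value measures the spread between litters.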
